A study of Mus musculus with 18 samples.

Results

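Side population cells sorted from the thyroid of thyroidectomized mice were compared here with the main population sorted from such glands, across all genes of a whole mouse genome array. Of the 18 arrays of the series, 7 enter the comparison: replicates 3, 4, 5 and 6 of the thyroidectomized side population (TSP) and replicates 1, 2 and 3 of the thyroidectomized main population (TMP). The labels name 6 TSP arrays. TSP 1 and TSP 2 were left out because their scanner profiles match the main population, and results with them are given as a check.

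The mice were C57BL/6 of both sexes, and the operated groups are labelled partial thyroidectomy, so part of the gland had been removed. Thyroid cells were freed with collagenase and dispase, cultured over 2 days, exposed to Hoechst, a DNA-binding dye, with or without verapamil, a blocker of efflux pumps, and sorted by flow cytometry. Cells in the dye-excluding gate were the side population, and the rest of the sorted cells were the main population. The control groups (CSP, 6 arrays, and CMP, 3 arrays) went through the same steps from glands that had not been operated. The labels call the replicates biological, without giving age, time after surgery or the number of animals behind a sample. RNA of each sample was amplified, labelled with Cy5 and hybridised beside a Cy3-labelled reference of RNA pooled from several Swiss Webster mouse tissues. Every array had the same dye orientation. Values below are log2 ratios of sample over reference, so 1 unit is a 2-fold step and 0 is the level of the reference.

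A side population is defined by function: its cells pump Hoechst out through ATP-binding cassette (ABC) transporters, among which Abcg2 and the Abcb1 proteins carry the dye, and verapamil blocks this. Such gates have been used to enrich stem and progenitor cells in several tissues, but endothelial cells can carry the same pumps. The thyroid itself is built of follicular epithelial cells, which make thyroid hormone from thyroglobulin, of scattered calcitonin-producing C cells, and of a dense stroma of capillaries, pericytes and fibroblasts, with parathyroid tissue nearby.

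TSP 1 and TSP 2 stood apart from the other TSP arrays. Across genes, which are not independent replicates, their correlation with the TMP arrays had a median Pearson r of 0.949 (0.901 to 0.962 over 6 pairs), and with TSP 3 to 6 a median of 0.695 (0.683 to 0.721 over 8 pairs). TSP 3 to 6 correlated among themselves with a median r of 0.864 (0.82 to 0.914) and with the TMP arrays with 0.687 (0.656 to 0.731). TSP 1 and TSP 2 shared slide 1 with CSP 1 and CSP 2. CSP 6 also lay closer to the main population arrays than the other CSP arrays did, and the mean of the follicular gene list was 1.06 on it against -0.27 to -0.07 on CSP 1 to 5. Between 38.8% and 66.8% of spots were well above background in Cy5 on the 7 arrays, and the median Cy5 background was 75 to 93 on slide 5 (TSP 5, TSP 6, TMP 3) and 42.5 to 43 on the slides of the other 4.

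**Figure D1:**
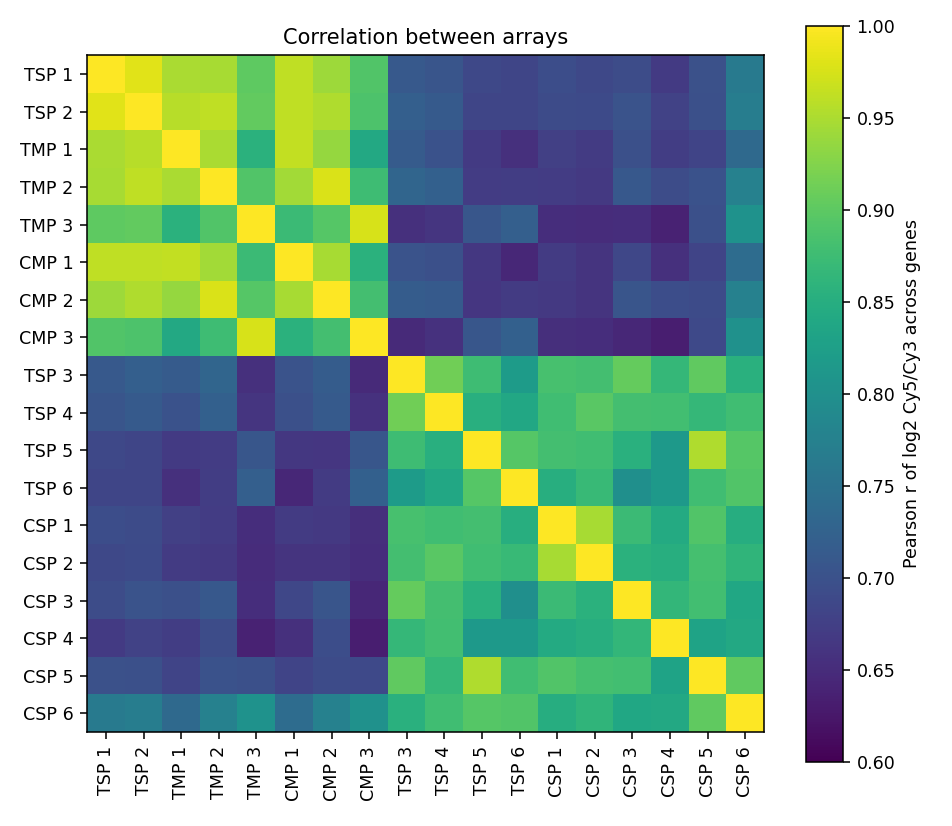
Pearson r of log2 Cy5/Cy3 across genes for each pair of the 18 arrays, on a colour scale from 0.6 (purple) to 1 (yellow). TSP 1 and TSP 2 fall in the block of TMP and CMP arrays, and TSP 3 to 6 in the block of CSP arrays.

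The choice of arrays used these ratios, so the contrast of TSP 3 to 6 with TMP is a description without a test. A gene was counted as higher or lower where the group means differed at least 2-fold and no array of one group overlapped the other group. Of 19986 genes with a value on all 7 arrays, 1557 (7.79%) were higher and 1325 (6.63%) were lower in TSP 3 to 6, together 2882 (14.4%). The median difference was 1.67 over the higher and -1.64 over the lower genes, against 0.04 over all genes, of which 53.3% lay above 0. A 4-fold difference was passed by 572 of the higher and 428 of the lower genes, and a 16-fold difference by 51 and 19. The median standard deviation (SD) of a gene was 0.42 over TSP 3 to 6 and 0.35 over TMP. Slide 5 held arrays of both groups. There the mean of TSP 5 and TSP 6 differed from TMP 3 at least 2-fold for 1244 of the higher and 1072 of the lower genes. The direction was the same for all 1557 and all 1325 genes, which the rule of no overlap fixed in advance. Just inside the 2-fold limit lay Pdxp, at 1.0001, and just outside it Sphk1, at 0.9994. In the group with the lower signal, 195 of the higher and 92 of the lower genes were not well above background on any array, so for those the fold is only bounded. The authors' deposited log2 ratios gave 275 higher and 290 lower genes, but their columns named TSP 2 to 6 each matched another array's scanner file best. The column named TSP 4 matched the file of the left-out TSP 2 best (r 0.888, against 0.62 with its own).

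The 14 genes with the largest positive differences were of several kinds. Igfbp7, a secreted protein of vessel walls that binds insulin-like growth factors, read 4.38, 4.16, 3.35 and 3.35 on TSP 3 to 6 and -2.07, -2.43 and -3.02 on TMP 1 to 3. The groups did not overlap, and the difference of 6.32 (79.7-fold) was the largest among genes well above background on all arrays of the brighter group. Tm4sf1, a tetraspanin-like membrane protein abundant in endothelium, read between 4.28 and 4.85 against -2.13 to -0.92, a 73.3-fold difference. Mmp3, or stromelysin 1, a matrix metalloprotease of fibroblasts, read 5.99, 6.90, 6.04 and 6.05 against 0.82, 0.16 and -0.48. All 4 TSP arrays were far above all 3 TMP arrays, by 67.6-fold between means. Mgp, an inhibitor of calcification made by vessel walls and cartilage, and Spp1, the secreted phosphoprotein osteopontin, were 67.0-fold and 66.5-fold higher. The other leading genes were an unnamed transcript of the array design, ENSMUST00000006171 (54.1-fold), Pdgfrb (48.0-fold), Fabp4 (47.2-fold), Mctp1 (47.1-fold), Penk (44.8-fold), Ackr1 (44.0-fold), Vim (41.3-fold), Vwf (38.3-fold) and Ntrk2 (34.2-fold). Fabp4 carries fatty acids in adipocytes and capillary endothelium, Penk encodes the opioid precursor proenkephalin, and Ntrk2 is the receptor of brain-derived neurotrophic factor. Probes of 1 gene did not always give the same size of difference: the smallest probe differences were 0.44 for Ntrk2 and 2.50 for Penk.

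The 14 largest negative differences began with Tspan1, at 50.1-fold. Tspan1, an epithelial tetraspanin, read -2.86, -3.49, -2.46 and -0.44 on TSP 3 to 6 and 3.06, 3.41 and 3.53 on TMP 1 to 3. The main population was higher on every array, with TSP 6 the nearest of the TSP arrays. Scin, an actin-severing protein of the gelsolin family, read 1.49, -1.13, -0.77 and 1.70 against 5.29, 6.12 and 6.17, a 46.6-fold difference. Cybrd1, a ferric reductase, was 26.7-fold lower and Atp1b1, the beta subunit of the sodium pump, 24.0-fold lower. Others in this set were Plekhd1 (23.5-fold), Clip4 (23.4-fold), Mal2 (23.3-fold), Mpzl2 (23.2-fold), Plet1 (19.8-fold), Igsf5 (19.4-fold), Slc16a11 (19.2-fold), Cdca7l (18-fold) and Il18r1 (17.8-fold). Mal2 sorts membrane to the apical surface, and Mpzl2 and Igsf5 are adhesion molecules of epithelial junctions. On TSP 3 to 6, Plekhd1 was well above background on 2 arrays, Il18r1 on 3 and Cdca7l on 1.

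**Figure D2:**
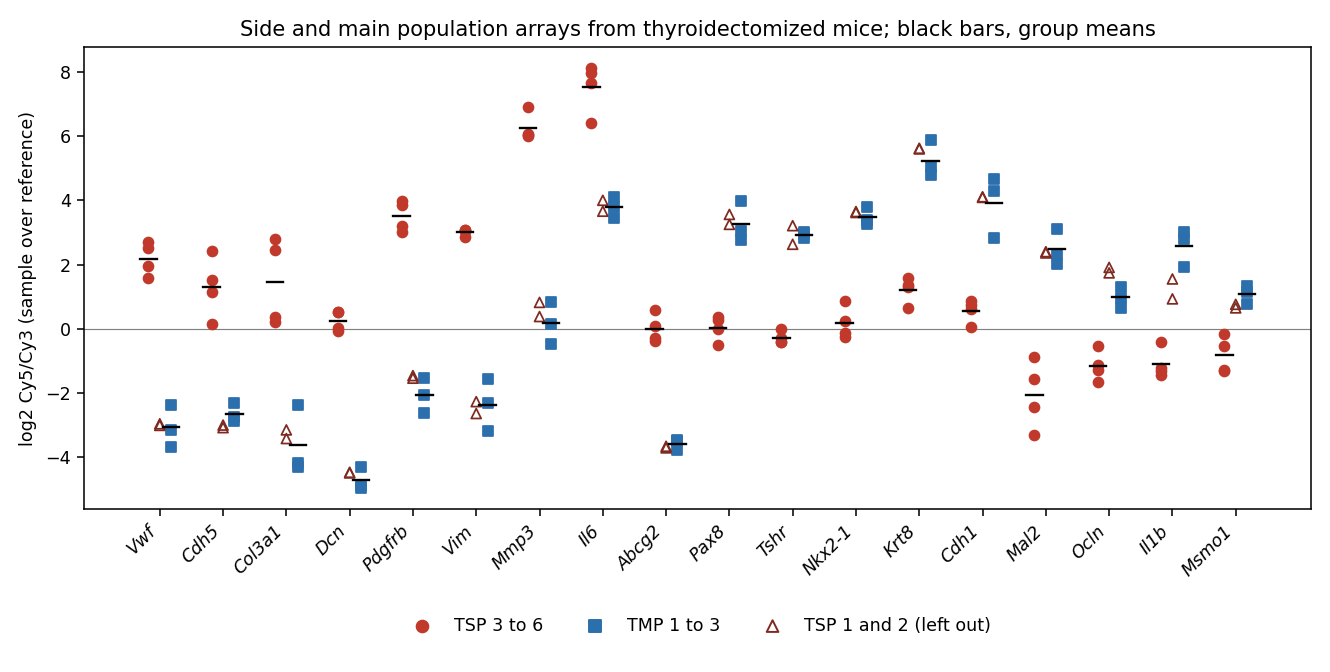
Log2 Cy5/Cy3 of 18 genes, with 1 point per array and black bars at the group means: TSP 3 to 6 (circles), TMP 1 to 3 (squares) and the left-out TSP 1 and TSP 2 (triangles). From Vwf to Abcg2 the circles lie above the squares and from Pax8 to Msmo1 below them, and the triangles lie with or near the squares.

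Follicular thyroid genes were lower in TSP 3 to 6 across most of the list. Of 19 measured genes of hormone synthesis and follicular identity (20 listed), 13 were lower, 1 was higher and 5 were neither, and the list median of the differences was -2.88. The list mean was between -0.58 and 0.09 on TSP 3 to 6 and between 1.78 and 1.89 on TMP. In bulk RNA, fewer cells of a type and less RNA per cell cannot be told apart.

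Tshr, the receptor of the pituitary hormone that drives the gland, read -0.40, -0.41, -0.30 and 0.00 on TSP 3 to 6 and 3.02, 2.82 and 2.94 on TMP 1 to 3 (probe at chr12:89019706-89019765, build mm7). It was not well above background on any of TSP 3 to 6, so its difference is a bound of at least 7.27-fold. Such bounds set the mean Cy5 signal of the brighter group against the lowest signal well above background on the dimmer arrays, or the probe's own where higher, and are open to dye bias since no dyes were swapped. The transcription factor Nkx2-1 read 0.25, -0.12, -0.25 and 0.85 against 3.79, 3.40 and 3.25, a 9.82-fold difference without overlap. Pax8 (9.35-fold) and Foxe1 (7.37-fold), which with Nkx2-1 specify the follicular cell, were also lower, each well above background on 1 of the 4 TSP arrays.

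Transport and oxidation genes were lower for the most part. Slc26a7, an anion transporter of the follicular cell, was 13.9-fold lower, the deiodinase Dio1 10.2-fold lower, Duoxa1 and Duoxa2, maturation factors of the hydrogen peroxide-producing oxidases, 9.51-fold and 8.89-fold lower, and Iyd, which recovers iodide, 9.24-fold lower. Duox1 read 0.02, 0.06, -0.14 and 0.01 against 1.23, 1.27 and 1.41, a 2.48-fold difference between means. Slc5a5, the sodium-iodide symporter, was not well above background on any of TSP 3 to 6 and was so on 1 of the 3 TMP arrays, so no size is given. Dio2, the activating deiodinase, was the list's exception: it read 0.03, 0.94, 1.15 and 0.43 against -1.36, -1.95 and -0.94, 4.16-fold higher in TSP 3 to 6.

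Thyroglobulin (Tg), the hormone precursor, differed less than most of the list. It read 4.79, 2.71, 3.70 and 3.91 on TSP 3 to 6 and 4.89, 6.31 and 4.99 on TMP 1 to 3. TSP 3 lay just below TMP 1, and both populations were far above the reference. The difference was -1.63 (3.08-fold lower), and it changed sign, to 1.00, when the arrays were scaled to a common spread.

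Simple epithelial keratins and adhesion genes were lower in TSP 3 to 6 as a group. Of 19 measured genes (20 listed), 17 were lower and none was higher, with a list median of -2.86. Krt8, an intermediate filament protein of simple epithelium, read 1.37, 0.65, 1.57 and 1.29 on TSP 3 to 6 and 4.79, 5.88 and 5.04 on TMP 1 to 3 (probe at chr15:101983072-101983131, mm7). All TMP arrays were above all TSP arrays, by 16.2-fold between means, and all 4 TSP arrays were still above the reference. Its partner Krt18 was 8.37-fold lower, and Krt19 and Krt7 16-fold and 10.4-fold lower. Cdh1, or E-cadherin, the calcium-dependent adhesion protein of epithelia, read 0.73, 0.07, 0.62 and 0.85 against 4.65, 4.30 and 2.83, a 10.3-fold difference without overlap. Epcam, an epithelial surface protein, read 0.86, 1.03, 0.76 and 1.25 against 3.69, 3.89 and 2.69, a 5.45-fold difference. Desmosomal Dsp, Dsc2, Dsg2 and Pkp2 were 12.3-fold, 8.15-fold, 6.31-fold and 5.92-fold lower. Cdh16, a cadherin first known from kidney epithelium, differed by -3.91. Krt5 and Krt14, keratins of basal and stratified epithelium, were neither higher nor lower, at -0.23 and -0.49, and read between -3.38 and -1.16 on all 7 arrays.

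Tight junction and polarity genes followed. Of 20 genes 16 were lower and none was higher, with a list median of -2.25. The membrane-sorting protein Mal2 read -1.56, -3.32, -2.45 and -0.88 on TSP 3 to 6 and 2.33, 3.11 and 2.02 on TMP 1 to 3. Ocln, the strand protein occludin, read -1.67, -1.12, -1.28 and -0.55 against 1.29, 0.97 and 0.66, 4.37-fold lower without overlap. Among claudins, the pore- and barrier-forming proteins of the strands, Cldn3 was 9.05-fold lower, Cldn1 8.63-fold, Cldn8 6.33-fold, Cldn4 5.18-fold and Cldn7 4.37-fold, while Cldn6 (-0.17) and Cldn10 (-0.49) were neither. Marveld3 was 9.62-fold and the scaffold Tjp3 6.67-fold lower, whereas the adhesion protein F11r differed by -0.92, under 2-fold.

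Regulators of the epithelial state were lower as well, with 12 of 19 measured genes (20 listed) lower and 1 higher (list median -1.54). Trp63, the p63 transcription factor, read -1.89, -2.07, -2.22 and -0.52 on TSP 3 to 6 and 2.00, 2.49 and 1.57 on TMP 1 to 3. It was 13-fold lower, with 1 TSP array well above background. Elf3 and Grhl2, transcription factors of simple epithelium, were 9.57-fold and 9.23-fold lower, Sox9 6.46-fold and the splicing regulator Esrp1 6.31-fold. With the median of its probes in place of the brightest, Grhl2 differed by -0.48, under 2-fold. Ehf was not well above background on any of TSP 3 to 6 and was at least 5.34-fold lower. Gata3 was the exception, 3.51-fold higher in TSP 3 to 6, and Foxa2 and Ovol2 were neither.

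Because the transcription factors of the Snail and Zeb families, described below, bind E-boxes of the form CAGGTG, the 250 bases before the start sites of these genes were searched for CAGGTG and its reverse complement CACCTG, on both strands. The windows are those of RefSeq on build GRCm38.p6, and a gene can have several. The motif was in 7 of 11 windows of the keratin and adhesion list (10 genes matched) and in 12 of 23 of the tight junction list (15 genes), against 17.2% of all 32851 windows. Over all genes it was in 25.2% of 1220 windows of genes lower in TSP 3 to 6, 13.9% of 1298 of genes higher and 16.2% of 13880 of measured genes in neither set. GC content was 59.6%, 58.4% and 58% in these sets. Below are the windows of 3 lower genes, with the motif in capitals; it lies 111 bases before the start in Krt8, 187 and 19 in Epcam, and 213 and 68 in Ocln. A match describes the letters and does not show that a factor bound there.
Krt8, chr15:102004343-102004592, minus strand: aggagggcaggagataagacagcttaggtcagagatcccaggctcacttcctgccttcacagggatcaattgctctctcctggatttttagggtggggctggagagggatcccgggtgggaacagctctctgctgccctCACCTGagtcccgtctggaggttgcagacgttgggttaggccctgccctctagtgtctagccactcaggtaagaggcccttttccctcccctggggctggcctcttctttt
Epcam, chr17:87635729-87635978, plus strand: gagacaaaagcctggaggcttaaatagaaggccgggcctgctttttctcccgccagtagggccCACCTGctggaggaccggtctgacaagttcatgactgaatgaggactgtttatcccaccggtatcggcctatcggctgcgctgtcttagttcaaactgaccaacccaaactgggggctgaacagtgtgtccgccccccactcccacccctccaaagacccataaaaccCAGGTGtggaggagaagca
Ocln, chr13:100552499-100552748, minus strand: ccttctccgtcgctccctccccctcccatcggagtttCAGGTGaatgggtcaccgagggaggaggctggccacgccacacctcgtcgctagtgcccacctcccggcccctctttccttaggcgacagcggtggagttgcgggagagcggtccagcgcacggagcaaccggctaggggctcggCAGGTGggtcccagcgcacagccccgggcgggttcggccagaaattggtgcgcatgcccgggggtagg

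Endothelial genes formed the opposite pole. Of 25 genes 22 were higher in TSP 3 to 6 and none was lower, with a list median of 3.14. The list mean was between 1.01 and 2.01 on TSP 3 to 6 and between -1.75 and -1.30 on TMP. Vwf, the von Willebrand factor that endothelial cells store for clotting, read 2.70, 1.58, 2.50 and 1.95 against -3.16, -3.68 and -2.38 (probe at chr6:125709328-125709387, mm7). Every TSP array was above the reference and every TMP array below it, 38.3-fold apart between means. Cdh5, or VE-cadherin, the junction protein of endothelium, read 1.51, 0.16, 2.42 and 1.16 against -2.32, -2.75 and -2.86, a 15.6-fold difference. TSP 4 was the lowest of the TSP arrays for both genes.

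Genes that mark venules were among them. Ackr1, the Duffy chemokine receptor of venules, read 4.33, 3.18, 3.53 and 3.04 on TSP 3 to 6 and -1.89, -2.30 and -1.63 on TMP 1 to 3, 44.0-fold apart. Sele and Selp, the selectins that inflamed endothelium shows to leukocytes, were 19.2-fold and 10.6-fold higher, and Emcn, a sialomucin of capillaries and veins, 15.4-fold higher. The transcription factors Sox17, Erg and Sox18 were 20.6-fold, 10.1-fold and 8.83-fold higher, although the smallest probe differences were 0.98 for Sox17 and 0.71 for Erg. Receptors of vascular growth factors were also higher, with Tek at 10.8-fold, Flt1 at 6.63-fold, Kdr at 4.36-fold and Tie1 at 4.35-fold. Pecam1, the adhesion protein CD31, read 2.19, 1.6, 1.82 and 0.58 against -0.34, -0.98 and -0.63, a 4.6-fold difference. Flt4 and Mmrn1, which mark lymphatic endothelium, and the capillary claudin Cldn5 were not separated, at 0.05, 0.57 and 0.62.

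The same upstream windows were searched for ACAGGAAG and its reverse complement CTTCCTGT, a form of the motif that ETS factors such as Erg bind. It was in 5 of 20 windows of the endothelial list (16 genes matched) and in 2.9% of all windows. Among all genes it was in 3.54% of windows of genes higher and 2.79% of genes lower in TSP 3 to 6. For measured genes in neither set the share was 2.52%. The share over the whole higher set was thus close to that of all windows. The windows of Sele and Emcn are shown with the motif in capitals, 67 and 174 bases before the start. Neither holds the E-box above, and none of the Krt8, Epcam and Ocln windows holds this motif. All windows shown were picked as examples that hold their motif. Over the lists the motifs were not kept apart. This one was in 9.09% of keratin and adhesion windows and 8.7% of tight junction windows, and the E-box was in 20% of endothelial windows.
Sele, chr1:164047984-164048233, plus strand: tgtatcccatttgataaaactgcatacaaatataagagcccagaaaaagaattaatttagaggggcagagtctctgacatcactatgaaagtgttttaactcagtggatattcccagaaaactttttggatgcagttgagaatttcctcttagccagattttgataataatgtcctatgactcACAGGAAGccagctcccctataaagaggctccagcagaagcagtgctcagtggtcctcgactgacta
Emcn, chr3:137340828-137341077, plus strand: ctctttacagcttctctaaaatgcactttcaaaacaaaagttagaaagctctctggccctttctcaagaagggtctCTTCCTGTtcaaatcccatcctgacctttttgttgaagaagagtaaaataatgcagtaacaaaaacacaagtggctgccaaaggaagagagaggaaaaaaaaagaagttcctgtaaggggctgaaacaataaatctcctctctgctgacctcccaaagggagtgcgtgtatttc

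Fibroblast and fibrillar matrix genes were higher to a like degree. Of 19 genes with a value on all 7 arrays (20 listed), 17 were higher and none was lower, with a list median of 3.39. Col3a1, the type III collagen chain, read 0.37, 2.45, 0.20 and 2.79 on TSP 3 to 6 and -2.36, -4.17 and -4.30 on TMP 1 to 3. The groups were 33.4-fold apart without overlap, and TSP 4 and TSP 6 were well above TSP 3 and TSP 5. The proteoglycans Dcn and Lum, which bind collagen fibrils, were 31.2-fold and 29.4-fold higher, the matricellular protein Postn 18.6-fold, Col6a3 17.1-fold, Col1a2 15.2-fold and Col1a1 11-fold. The receptor Pdgfra and the protease Fap, both of fibroblasts, were 10.5-fold and 9.55-fold higher. Some of these genes had a probe with little difference: the smallest were 0.42 for Col1a1, 0.57 for Pdgfra and 0.67 for Col3a1. Dpt lacked a value on TMP 2. Col6a2 (0.56) and Pi16 (0.22) were neither higher nor lower.

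Pericyte and smooth muscle genes split. Of 16 genes 9 were higher and none was lower (list median 1.2). Pdgfrb, the receptor by which pericytes are recruited to vessels, read 3.02, 3.98, 3.21 and 3.85 on TSP 3 to 6 and -1.53, -2.62 and -2.06 on TMP 1 to 3. No array of one group came near the other, and the means were 48.0-fold apart. Cspg4, the proteoglycan NG2, was 12.7-fold higher by the probe used and 0.38 in log2 units by its least different probe. Rgs5, a pericyte regulator of G protein signalling, was 6.01-fold higher and the channel subunit Kcnj8 5.72-fold. The contractile genes were closer: Acta2, smooth muscle actin, read -0.11, 0.75, 0.37 and 1.80 against -0.75, -0.64 and 0.23, so the groups overlapped, and another of its probes gave a difference of -1.71. Tagln (0.63), Smtn (-0.13), Actg2 (-0.89) and Cnn1 (-1.36) were neither higher nor lower.

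Mesenchymal genes, including the factors that repress the epithelial state, were higher for 13 of 16 and lower for none (list median 2.42). Vim, the intermediate filament vimentin, read 2.85, 3.07, 3.03 and 3.08 on TSP 3 to 6 and -1.57, -2.32 and -3.19 on TMP 1 to 3 (probe at chr2:13521763-13521822, mm7). The 4 TSP arrays lay close together, 41.3-fold above TMP between means. The forkhead factors Foxc2 and Foxc1 were 20.9-fold and 18.6-fold higher. Twist2 and Twist1, basic helix-loop-helix factors of mesenchyme, were 14.6-fold and 8.97-fold higher, and Zeb2 and Zeb1, repressors of E-cadherin, 12.8-fold and 5.99-fold higher, with a smallest probe difference of 0.62 for Zeb2. Snai2 was 5.43-fold higher. Snai1 was not well above background on any TMP array and was at least 6.09-fold higher in TSP 3 to 6. Fn1, fibronectin, which is often listed with these genes, was not higher, at -0.38, and S100a4 and Prrx1 overlapped between the groups.

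**Figure D3:**
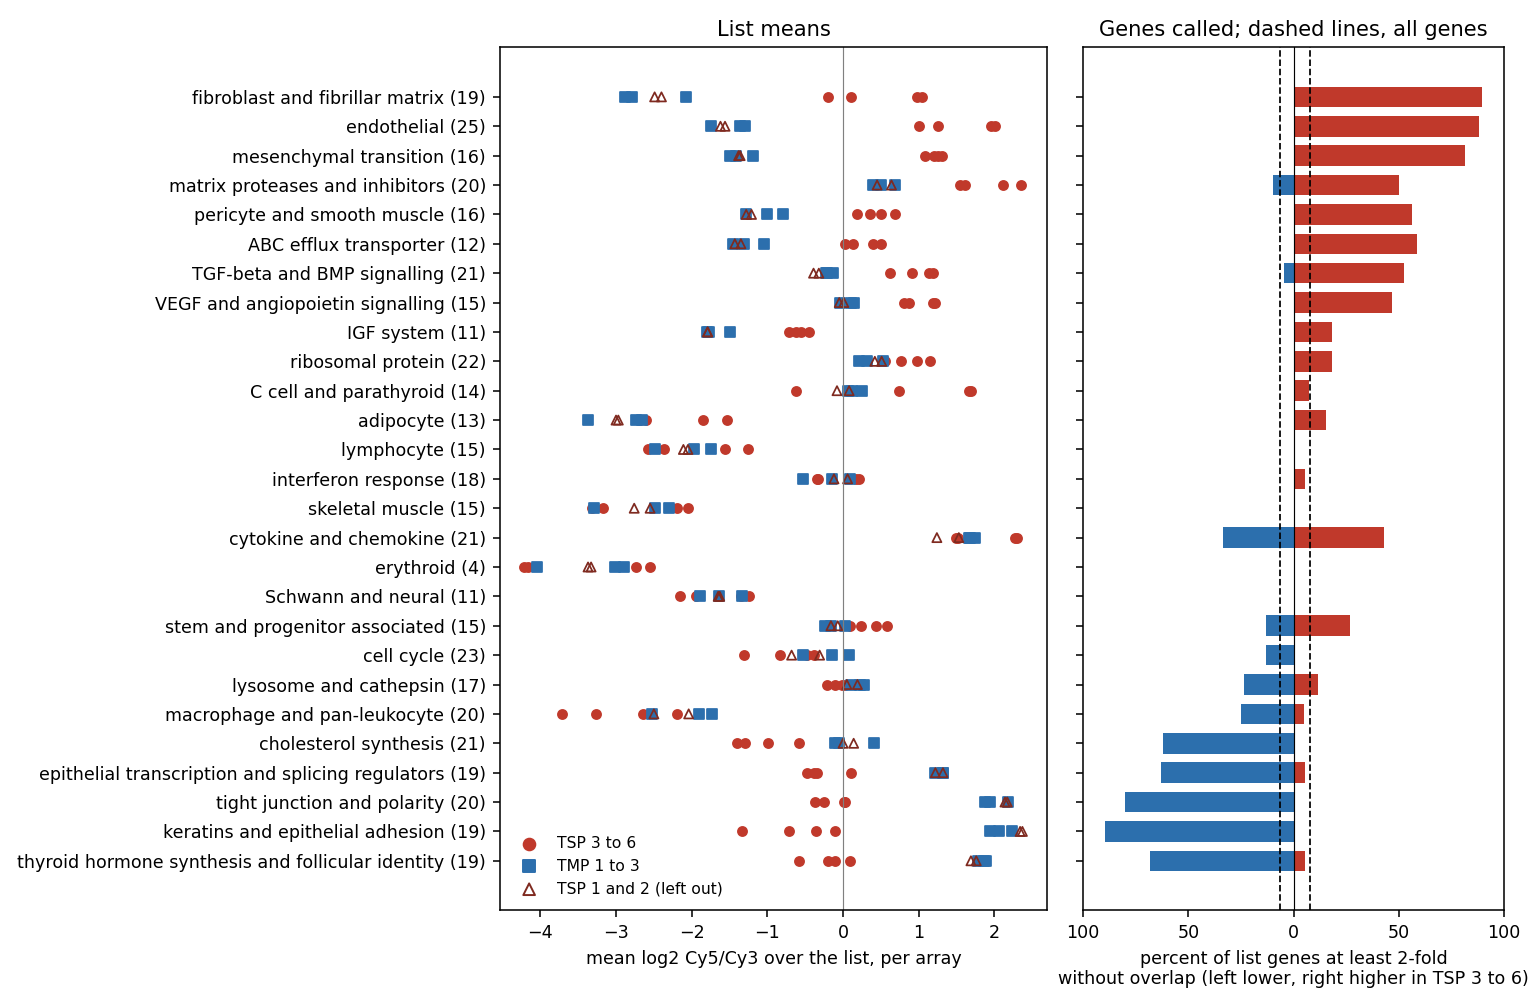
Left, mean log2 Cy5/Cy3 of each gene list on each array (genes with a value on all 7 arrays in brackets); right, percent of the list's genes at least 2-fold lower (left of 0) or higher (right of 0) in TSP 3 to 6 without overlap, with dashed lines at 6.63% and 7.79%, the shares over all genes. Fibroblast, endothelial and mesenchymal lists lie at one end and the epithelial and follicular lists at the other.

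The dye pumps that define the gate were measured too. Of 12 ABC transporters (13 listed), 7 were higher and none was lower in TSP 3 to 6, with a list median of 1.12. Abcg2 read 0.09, -0.39, 0.58 and -0.30 on TSP 3 to 6 and -3.45, -3.79 and -3.51 on TMP 1 to 3, 11.9-fold apart without overlap. Abcb1b read 1.83, 1.45, 1.17 and 1.01 against -2.43, -2.49 and -2.11, 13.1-fold apart. Abcb1a, the other mouse gene for the verapamil-sensitive pump P-glycoprotein, read 3.09, 3.10, 1.81 and 0.82 against -0.90, -1.11 and -0.54, 8.28-fold apart. All 3 pumps were thus higher on each of TSP 3 to 6 than on any main population array. Endothelial cells are also known to carry them. The phospholipid pump Abcb4, close in sequence to the Abcb1 genes, was 8.95-fold higher and Abcc4 6.16-fold, while Abca3 (-1.16) and Abca1 (-0.34) overlapped.

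Genes associated with stem and progenitor cells split. Of 15 measured genes (18 listed) 4 were higher and 2 were lower, against 7.79% and 6.63% of all genes. The list median was -0.14 and the list mean 0.46. The higher ones were Procr (a difference of 4.32), Cd34 (11-fold), Aldh1a2 (3.94-fold) and Ly6a (2.80-fold); Procr and Cd34 are also surface proteins of endothelium. Ly6a, the stem cell antigen Sca-1, read -2.11, -2.37, -1.48 and -1.84 against -2.69, -4.16 and -3.46, below the reference on all 7 arrays, and its difference was 0.22, under 2-fold, when the arrays were scaled to a common spread. That scaling also turned the list median to 0.28. Pou5f1, the pluripotency factor Oct4, read between -0.11 and 0.24 on TSP 3 to 6 and between -0.26 and 0.97 on TMP, and was well above background on 2 and 0 of those arrays, so no fold is given. Kit, Lgr5, Bmi1, Klf4, Nes and Msi1 differed by -0.46 to 0.71 and overlapped or stayed under 2-fold. The ecto-enzyme Nt5e and the retinaldehyde dehydrogenase Aldh1a3 were 3.12-fold and 3.09-fold lower.

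Matrix proteases and their inhibitors were higher for 10 and lower for 2 of 20 genes (list median 1.48). After Mmp3, the gelatinases Mmp2 and Mmp9 were 11.8-fold and 11-fold higher, Mmp10 9.76-fold, the plasminogen activator Plat 9.02-fold and the aggrecanase Adamts5 7.05-fold. Plau, the other plasminogen activator, ran the other way: it read 0.00, -0.71, -0.81 and -0.19 on TSP 3 to 6 and 1.75, 1.67 and 2.34 on TMP 1 to 3, 5.09-fold lower. Among inhibitors, Timp1 was 2.67-fold higher and Timp3 2.06-fold lower, and Timp2 overlapped between the groups.

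Signals and receptors of the vessel and matrix were higher in part. For the VEGF and angiopoietin list 7 of 15 measured genes (16 listed) were higher and none was lower (list median 0.94). Angpt2, an endothelial ligand of Tek, read 4.61, 3.52, 4.26 and 3.70 against 0.86, 0.34 and 0.06, 12.2-fold apart, the apelin receptor Aplnr was 8.90-fold higher and the ligand Vegfc 4.14-fold. Vegfa, the main ligand of Kdr, differed by 0.41 and Pgf by -0.66. In TGF-beta and BMP signalling 11 of 21 measured genes (22 listed) were higher and 1 was lower (list median 1.05). The BMP targets Id2 and Id3 were 8.54-fold and 3.99-fold higher, the activin subunit Inhba 8.06-fold, its antagonist Fst 5.79-fold, and the ligands Tgfb2, Bmp4 and Tgfb3 4.42-fold, 4.06-fold and 3.18-fold. Bmper was not well above background on any TMP array and was at least 2.70-fold higher, and the activin subunit Inhbb was 2.08-fold lower. The IGF list had a median of 0.56, which turned to -0.26 with scaling between arrays. Of the IGF system 2 of 11 genes with all 7 values (13 listed) were higher, Igfbp7 and Igfbp5 (8.64-fold, with a smallest probe difference of 0.61), while Igf1 (0.29), Igf2 (-0.05) and Igf1r (-0.50) were not separated.

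Cytokines and chemokines split in both directions, with 9 of 21 measured genes (22 listed) higher and 7 lower (list median 0.06, and 1.8 with scaling between arrays). Il6, an inflammatory cytokine of stromal and endothelial cells among others, read 8.11, 7.97, 7.65 and 6.4 on TSP 3 to 6 and 3.80, 3.46 and 4.09 on TMP 1 to 3. Both groups were far above the reference, and they were 13.4-fold apart. Ptgs2, the inducible cyclooxygenase, was 8.78-fold higher, Il33 8.17-fold, the chemokines Cxcl12 7.32-fold, Ccl7 6.92-fold, Cxcl5 5.38-fold and Ccl2 3.62-fold and Cxcl1 3.37-fold, and Il11 3.58-fold. Il1b, interleukin 1 beta, read -1.21, -1.31, -1.45 and -0.40 against 2.80, 1.91 and 3.02, 12.7-fold lower, with 1 TSP array well above background. Its antagonist Il1rn was 8.92-fold and Tnf 7.39-fold lower. Il1a was not well above background on any of TSP 3 to 6 and was at least 5.49-fold lower, and Ccl20 likewise at least 2.57-fold lower. The chemokines Cxcl2 and Cx3cl1 were 3.90-fold and 2.40-fold lower, so chemokines were found on both sides.

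Markers of the remaining cell types were mostly not separated. For macrophages and leukocytes 5 of 20 genes were lower and 1 was higher (list median -0.84), against 6.63% and 7.79% of all genes. The higher gene was Cd14, with a difference of 1.63. Ctss, a lysosomal protease of macrophages, read -6.52, -7.96, -5.86 and -5.99 on TSP 3 to 6 and -2.12, -2.68 and -3.85 on TMP 1 to 3, 13-fold apart. The macrophage receptor Adgre1 was 4.86-fold lower, with 1 TSP array well above background, whereas the pan-leukocyte gene Ptprc differed by -0.80 with overlap. No gene of the lymphocyte (15 measured of 16 listed), skeletal muscle (15 of 15), erythroid (4 of 10) or Schwann (11 of 12) lists was higher or lower. Of 13 adipocyte genes with all 7 values (14 listed), Fabp4 and Pparg were higher, and the defining markers Adipoq (0.06) and Lep (0.26) were not. The part that these cell types play in the gene differences was not tested.

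Genes of C cells and parathyroid separated TSP arrays from each other more than from TMP. Only Pcsk1, a prohormone convertase, was higher among 14 measured genes (16 listed), 8.14-fold. A count of 1 in 14 is close to the share of 7.79% over all genes. The list median was 0.38, and 2.18 with scaling between arrays. Pth, parathyroid hormone, read 5.76, 7.04, 5.21 and 5.93 on TSP 3 to 6 and 6.14, 6.68 and 5.69 on TMP 1 to 3. Calca, the gene of calcitonin, read 1.5, 4.56, 4.09 and 4.31 against 3.83, 4.37 and 3.95. Both hormones were thus far above the reference in both populations, with TSP 3 lowest for Calca. Scg2, a secretory granule protein, read -2.01, 3.50, 0.47 and 2.32 against -0.87, -1.41 and -1.34, with TSP 3 below and the other TSP arrays above the TMP arrays.

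Cholesterol synthesis was lower in TSP 3 to 6, with 13 of 21 genes lower, none higher and a list median of -1.14. For this list and those that follow, the shares over all genes were 6.63% lower and 7.79% higher. Hsd17b7, a reductase of the pathway, read -2.62, -2.57, -2.75 and -2.16 on TSP 3 to 6 and -0.53, -0.03 and -0.23 on TMP 1 to 3. It was 4.79-fold lower without overlap. Msmo1, a sterol oxidase, was 3.77-fold and the squalene synthase Fdft1 3.37-fold lower, while the isomerase Ebp (0.17) was neither. With the median of its probes Fdft1 differed by -0.51, under 2-fold. Of 23 cell cycle genes 3 were lower and none higher (list median -0.48): Ccnd1, or cyclin D1, read -0.61, -0.60, -0.53 and 0.07 against 2.20, 2.50 and 2.17, 6.51-fold lower, and the mitotic genes Ccnb1 and Bub1 were 2.85-fold and 2.24-fold lower. Bub1 was under 2-fold lower without TSP 5 (-0.81) or TMP 2 (-0.85). Mki67, a marker of cycling cells, overlapped, at -0.89. In the lysosome list 4 of 17 measured genes (18 listed) were lower, led by the cathepsins Ctsh (4.33-fold) and Ctsd (3.14-fold), and 2 were higher, the collagen-degrading cathepsin Ctsk (7.97-fold) and Lipa (4.23-fold, although another probe of Lipa gave -1.1). Of 22 ribosomal protein genes 4 were higher by 2.05-fold to 2.25-fold (list median 0.44). Of 18 interferon response genes only Oas2 was higher, by 2.46-fold (list median 0.14), though its difference was 0.95 with the slide as a block. A count of 1 in 18 is below the share over all genes.

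Within TSP 3 to 6, endothelial and fibroblast genes varied in opposite senses. Relative to each gene's mean over these 4 arrays, the median deviation of the 25 endothelial genes was 0.50 on TSP 3 and 0.46 on TSP 5, and -0.61 on TSP 4 and -0.28 on TSP 6. The 19 fibroblast genes gave -0.43 and -0.81 on TSP 3 and TSP 5, and 0.51 on both TSP 4 and TSP 6. On TSP 3 and on TSP 5, 21 of the 25 endothelial genes were above their own mean, and on TSP 4 and on TSP 6, 17 of the 19 fibroblast genes were. TSP 3 and TSP 4 shared slide 3, and TSP 5 and TSP 6 shared slide 5, so each slide held an array of either kind. C cell and parathyroid genes had a median SD of 1.33 over TSP 3 to 6 against 0.42 over TMP, with deviations of -1.72 on TSP 3, 0.84 on TSP 4, -0.10 on TSP 5 and 0.63 on TSP 6. The secretory genes Chgb, Scg3 and Pcsk2 were, like Scg2, lowest on TSP 3. For cell cycle genes 20 of 23 were above their mean on TSP 4, 18 on TSP 6, 9 on TSP 3 and 2 on TSP 5. High counts on TSP 6 were not particular to the fibroblast and cell cycle lists. There 18 of 19 keratin and adhesion, 19 of 20 macrophage and 20 of 21 cholesterol synthesis genes were above their mean. Against this, 4 of 25 endothelial and 5 of 18 interferon response genes were. Genes on 1 array are not independent replicates, and the share over all genes is not given. Lists that read far below the reference differed by slide instead: the skeletal muscle list mean was -3.17 and -3.32 on TSP 3 and TSP 4, and -2.20 and -2.05 on TSP 5 and TSP 6, whose Cy5 background was 92 and 93 against 42.5. The part of the background in this was not tested.

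**Figure D4:**
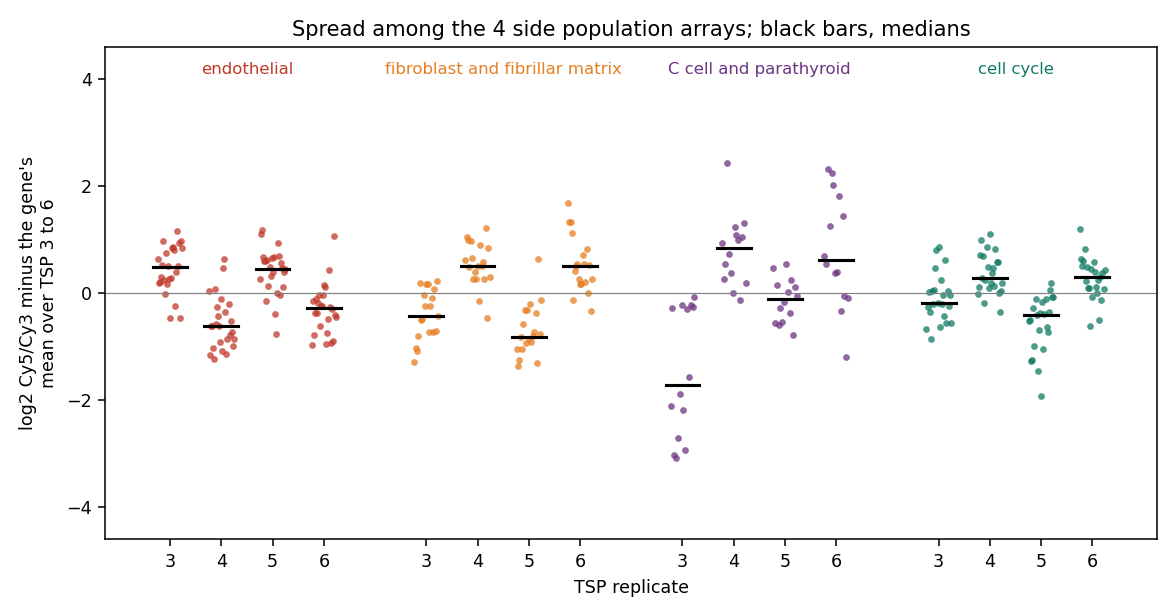
Deviation of each gene from its own mean over TSP 3 to 6, in log2 units, for 4 lists on each of the 4 arrays (points, genes; black bars, medians). Endothelial genes are high on TSP 3 and TSP 5 and fibroblast genes on TSP 4 and TSP 6.

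With TSP 1 and TSP 2 included, the separation shrank. Of the 1557 higher and 1325 lower genes, 914 and 841 had a difference of means of at least 2-fold over all 6 TSP arrays, and the median differences were 1.1 and -1.15. On both left-out arrays, 1505 of the higher and 1242 of the lower genes lay outside the range of TSP 3 to 6. Vwf read -3.01 and -2.96 there and Krt8 5.62 and 5.60, each within or near the range of TMP. Only 82 genes were at least 2-fold higher and 212 lower without overlap when all 6 TSP arrays were used. The rule of no overlap is harder to meet with more arrays. A limma test of TSP against TMP on all labelled arrays, with a shared spread over the 18 arrays, called 0 of 20290 genes (0%) at an adjusted p under 0.05 and gave 2792 genes at an unadjusted p under 0.05. Its smallest adjusted p was 0.0597, for Duox1, whose difference in that fit was -1.33 with a standard error of 0.20. Duox1 read 0.01 and -0.14 on TSP 1 and TSP 2, near TSP 3 to 6, and was lower than TMP on 6 of 6 TSP arrays. For Il1b the limma adjusted p was 0.162, with a difference of -2.89 and a standard error of 0.53, and it too was lower on 6 of 6. Without TSP 1 alone the test called 519 genes, without TSP 2 alone 613, and without both 3011 (14.8%), which is no test of the contrast because those arrays were chosen by it. With the slide as a block, limma called 221 genes with all arrays, 157 higher and 64 lower. The labels do not say whether replicates came from separate animals, so p-values measure the spread between these samples.

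The side and main populations of the control glands were compared in the same way. TSP 1 and TSP 2 matched CMP (median r 0.947) as they did TMP, so the CMP arrays are not independent of the choice of TSP arrays, and the overlap below is a description. A limma test of CSP against CMP called 3671 of 20290 genes (18.1%), 1925 higher (9.49%) and 1746 lower (8.61%) in CSP, at an adjusted p under 0.05. Without CMP 1 the count was 2299 and without CMP 2 it was 2267; without CSP 6, it was 3749. With the slide as a block it was 5734, but that fit used all 18 arrays rather than the 9 control arrays. With each array centred on its median the split of the calls moved to 1351 higher and 2554 lower. Of the 1557 genes higher in TSP 3 to 6, 1227 (78.8%) were called higher in CSP, which are 63.7% of the CSP calls, and of the 1325 lower genes 1093 (82.5%) were called lower, 62.6% of the CSP calls. None was called the other way. The groups share no array, though slides 2 to 5 each held operated and control arrays.

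Values of the main genes were side by side in both comparisons. For Vwf the difference of CSP from CMP was 5.12 (standard error 0.41, limma adjusted p 1.09e-05, higher on 6 of 6 CSP arrays), and for Vim 5.46 (0.28, limma adjusted p 2.96e-06, 6 of 6). For Krt8 it was -4.69 (0.97, limma adjusted p 0.00513, lower on 6 of 6), with CSP 6 at 3.66 and the others between -2.27 and 1.61. Abcg2 differed by 2.98 (0.41, limma adjusted p 0.000377, higher on 6 of 6). Tg did not pass, at -1.18 (0.52, limma adjusted p 0.146). By list, limma called 22 of 25 endothelial genes higher and none lower, 18 of 20 fibroblast genes higher, 17 of 19 keratin and adhesion genes lower, 12 of 19 follicular genes lower with 1 higher, and 18 of 21 cholesterol synthesis genes lower. For C cell and parathyroid genes limma called 8 of 14 higher in CSP. By the unlike rule of 2-fold without overlap, 1 was higher in TSP 3 to 6 than in TMP. The mean of that list was -0.62 on TSP 3, 1.66, 0.74 and 1.69 on TSP 4 to 6, and 0.06 to 0.25 on TMP. The list counts set the 2 comparisons side by side and do not test a difference.

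**Figure D5:**
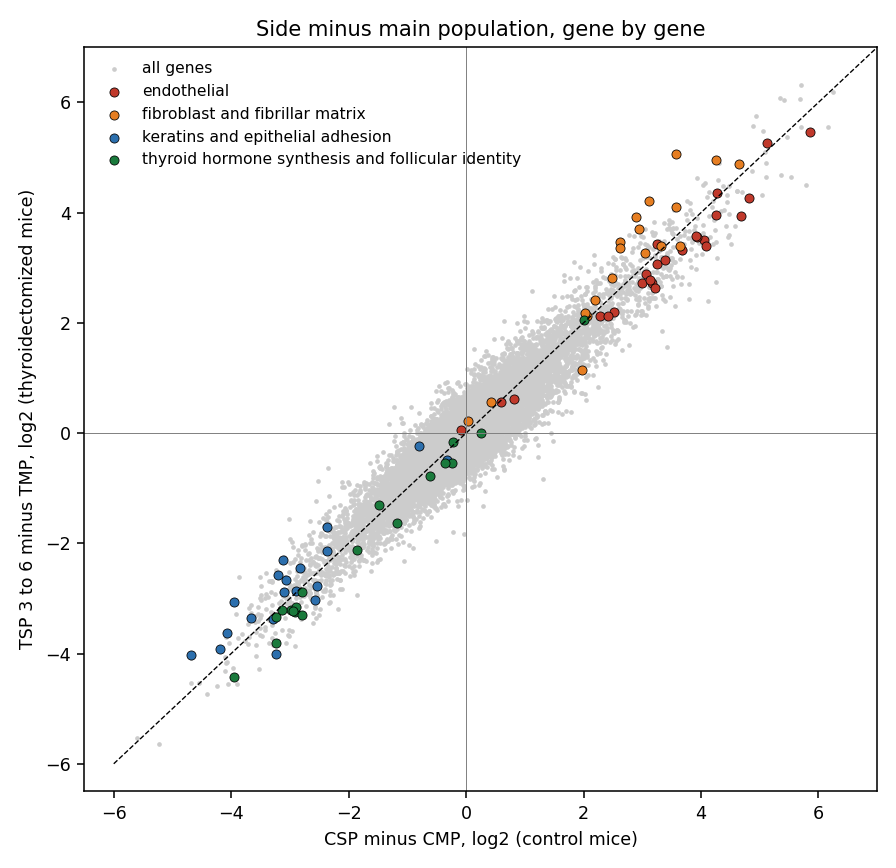
Difference of side from main population, in log2 units, in thyroidectomized mice (vertical, TSP 3 to 6 minus TMP) and control mice (horizontal, CSP minus CMP), with 1 point per gene and 4 lists coloured; the dashed line marks equal values. Most endothelial genes lie below the line, most fibroblast genes above it, and most keratin and follicular genes in the lower left. The test of a difference between operated and control mice, given below, called 0 genes.

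Whether the difference of side from main population itself differed between operated and control mice was tested with the interaction term of limma on all labelled arrays. It called 0 of 20290 genes, with 222 at an unadjusted p under 0.05 and a smallest adjusted p of 1. Without TSP 1 and TSP 2 the limma fit also called 0, with 128 at an unadjusted p under 0.05. That fit is no test of the interaction, because its TSP arrays were chosen by these ratios. Genes were also ranked by the difference of differences without TSP 1 and TSP 2. Only genes with all 18 values and no overlap between TSP 3 to 6 and CSP were ranked. They also had to be well above background on all arrays of at least 1 group. Among these Calca had the largest negative value, -1.67. It read 4.72 to 5.68 on CSP, 3.43 to 4.47 on CMP and the values given above on the operated arrays. Fosl1, a subunit of the transcription factor AP-1, gave -1.31, the zinc finger gene Zfp949 -1.23, Phax, an exporter of small nuclear RNA, -0.93, and the design's unnamed transcripts NAP026474-1 and NAP059572-1 -1.21 and -1.08. In the other direction lay the kinase gene Cdkl1 (1.25), the carboxylesterase Ces2b (1.14), Postn (1.1), Adamts5 (1.05), the protein kinase A subunit Prkar2a (1.01) and the sulfotransferase Chst8 (0.84). Postn read -1.64 to 0.15 on CSP and -4.51 to -3.25 on CMP, against 0.59, 1.32, 0.89 and 1.28 on TSP 3 to 6 and -2.23, -3.62 and -3.74 on TMP. The interaction adjusted p of limma was 1 for each of these 12 genes, so none passed. The smallest unadjusted p among them was 0.00633, for Zfp949, whose interaction with all arrays was -1.15 with a standard error of 0.37.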

How the data were processed

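Gene expression was measured on 2-colour Agilent whole mouse genome arrays of 45018 spots, 1 array per sample, with the sample in Cy5 and a common reference in Cy3. The deposited scanner files hold mean and background signal intensity for both dyes and a log10 ratio of red over green that the scanner software computed, with spot flags. Per the file headers the signals were extracted with Feature Extraction 9.5.1.1 on probe coordinates of build mm7, while the submitters' processing notes name version 8.5.1.1. The authors' deposited value table holds log2 ratios whose normalization is not given in the sources used here. Set against the scanner files, its columns ran in the same direction (sample over reference) with medians of 0.13 to 0.30, and 9 columns matched another array's file best, so the scanner files were used and that table served as an alternative.

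In limma 3.58.1 (R 4.3.3) the mean intensities were background-corrected (normexp, offset 50) and normalized by loess within each array, with control spots at weight 0, and spots flagged as outliers were left out. Spots of 1 probe were averaged, probes whose Cy5 signal was well above background on 3 or more of the 18 arrays were kept, and the brightest probe stood for a gene, which left 20290 genes. Of the 41174 probes, 22951 took their symbol from RefSeq (GRCm38.p6) by the accession in the file, 121 by another accession, 6582 by symbol and 3078 by synonym, and 8442 kept the name in the file. Exon and UTR annotation was not used here. Tests were fitted with limma (lmFit, eBayes, Benjamini-Hochberg adjustment) on the 4 labelled groups, except that CSP against CMP was fitted on those arrays alone. The fit was tested on simulated data. The number of arrays limits the precision.

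Named genes were the 14 with the largest difference in each direction, up to 4 per list, and defining cell type markers. For operated against control mice, the 6 genes with the largest difference of differences in each direction were named, after the filters given above. Further list members were named after their values were seen. The arrays, members and gene lists were chosen with earlier results of these data known. Other background corrections, normalizations, filters, probe rules, blocks and sets of arrays were tried as alternatives. Some genes are not reported here.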

Additional observations from a re-analysis of the deposited data

Results flagged for a closer look

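In 5 of 167 genes and list means screened, 1 of the TSP 3 to 6 arrays lay far from the other 3, past the limit of Dixon's gap test for groups of 4. Chance marks about 1 in 20 groups of 4. Mmp3 read 6.90 on TSP 4, against a nearest value of 6.05. Spp1 read 4.68 on TSP 5, against 5.01. Calca, the calcitonin gene, read 1.5 on TSP 3, against 4.09. Ccnd1 read 0.07 on TSP 6, against -0.53, and Bub1 read -2.75 on TSP 5, against -1.46. Mmp3, Spp1 and Ccnd1 stayed far from the TMP arrays on all 4 TSP arrays.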

How the results depend on the processing

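The counts of genes higher and lower in TSP 3 to 6 than in TMP (1557 and 1325) moved by over 1.5 times with the scanner software's log ratio (2002 lower), the authors' log2 ratios (275 and 290), a 4-fold limit (572 and 428), and all 6 TSP arrays (82 and 212). Leaving out 1 array gave 1590 to 1899 higher and 1352 to 1762 lower genes. The rule of no overlap is easier to meet with fewer arrays and harder with more, which favours these directions. In the authors' ratios, the column named TSP 4 matched the left-out TSP 2 best. The median difference of all genes was between -0.06 and 0.09 over the processing settings. Of 116 named genes followed through 19 alternatives, only Tg reversed, to 1.00 with scaling between arrays; there were 1873 gene values that moved by less than 1 SD, and 323 that moved more. Of the list medians over the same alternatives, 428 values moved by less than 1 SD and 85 moved more, 18 of them with scaling between arrays. That scaling turned the sign for skeletal muscle (-1.68), lymphocyte (-0.72), IGF (-0.26), interferon (-0.11), adipocyte (-0.05) and stem (0.28) genes. It also lowered the erythroid median to -1.7 and raised the cytokine median to 1.8 and the C cell median to 2.18. The stem median was also above 0 without background subtraction (0.11), with the scanner software's ratio (0.35) and with the slide as a block (0.2), and the cytokine median was 0.91 under the stricter filter, 1.1 with the authors' ratios and 0.72 with the slide as a block. The limma count for TSP against TMP with all arrays was 1 with a filter of at least 1 array (Duox1, limma adjusted p 0.0389) and 1 with the median of probes (Duox1, limma adjusted p 0.0372), 221 with the slide as a block, 3011 without TSP 1 and TSP 2, and 0 to 613 with 1 array left out. Chosen after seeing the data, the slide block without TSP 1 and TSP 2 gave 3220 and a fit of TSP and TMP alone without them 2703. CSP against CMP gave 5734 with the slide as a block in a fit of all 18 arrays. It gave 2267 to 3749 with 1 of the control arrays left out, and the interaction 0 to 0. The causes were not tested.

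Deviations of TSP and TMP arrays of 1 replicate number correlated with r of 0.0583, 0.206 and -0.238. Because these few pairs included the left-out TSP arrays, whose profiles match the main population, they cannot decide whether the numbers pair the samples. With the replicate number as a block, limma called 0 genes for TSP against TMP (382 at an unadjusted p under 0.05), 0 for the interaction (458) and 2514 for CSP against CMP.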
